A study of Mus musculus with 6 samples.

Results

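The genes described here are 10 genes of club cells and other secretory cells of the airway epithelium: Scgb1a1, Scgb3a1, Scgb3a2, Cyp2f2, Upk3a, Cbr2, Aldh1a7, Cckar, Reg3g and Cldn10. They were taken as all probe sets whose platform gene symbol was one of these names. Each gene had 1 probe set, so 10 probe sets of 27022 tested stood for 10 genes of 12826, and all 10 passed the filter on low values. Their level was measured in the lungs of 6 mouse fetuses (E18.5, late gestation) with 1 Affymetrix array per animal. All 6 animals carried 2 floxed Nfib alleles (Nfib f/f), and 3 of them also carried Dermo1-Cre, a Cre recombinase expressed from the Dermo1 (Twist2) locus and used to recombine floxed genes in mesenchyme. The other 3 had no Cre and no Nfib wild type, Cre-alone or heterozygous group was in the labels. The labels call the 3 animals of a group biological replicates.

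Club cells are dome-shaped, non-ciliated cells that line the conducting airways. They secrete secretoglobins, small proteins of the airway lining fluid, and hold cytochrome P450, carbonyl reductase and aldehyde dehydrogenase enzymes that process inhaled and endogenous compounds. They arise from airway progenitors, where Notch signalling favours the secretory over the ciliated fate, and they mature around birth. They are epithelial and therefore not the cells in which Dermo1-Cre is used to delete genes. In whole lung RNA, fewer cells of a type and less RNA per cell cannot be told apart.

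Signals are log2 values, and a difference is the Cre-labelled mean less the control-labelled mean, with its standard error (SE) from a limma fit across all tested probe sets. A gene is called where its Benjamini-Hochberg adjusted p from limma is under 0.05. Trimmed mean signals were 150.04 to 150.05 on all 6 arrays, and array medians were 4.80 to 5.03. Genes of alveolar type II cells averaged 10.25 to 11.31 per array over 11 tested genes, so lung RNA was present on every array. Of 7 probe sets of Nfib, which encodes the transcription factor nuclear factor I B, 6 were tested, 5 were called higher in Cre-labelled lungs and none lower. The brightest read 10.24, 10.32 and 10.17 on the control-labelled arrays and 11.24, 11.16 and 11.49 on the Cre-labelled ones. The position of its probes relative to the deleted part is unknown here, so Nfib did not check the labels, and the groups are named as labelled.

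Of the 10 genes, 1 was called lower in Cre-labelled lungs, Cyp2f2, and none higher. Over all 27022 probe sets 2.16% were called lower and 1.41% higher, 3.56% in all. At an adjusted p under 0.10 (limma) 2 members were lower, Cyp2f2 and Scgb1a1, beside 4.4% of all probe sets. A lower mean was found in 9 of the 10 genes, 4 of which turned positive when arrays were centred on epithelial genes, against 49.9% of all tested probe sets. The median difference was -0.31. The groups did not overlap for 4 genes, of which Scgb1a1, Cyp2f2 and Upk3a were lower and Aldh1a7 higher in Cre-labelled lungs; 12.8% of all tested probe sets had groups apart in the lower direction and 13.3% in the higher. For Scgb3a1, Reg3g, Scgb3a2, Cckar and Cldn10, the SD within each group exceeded the difference between the group means.

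**Figure D1:**
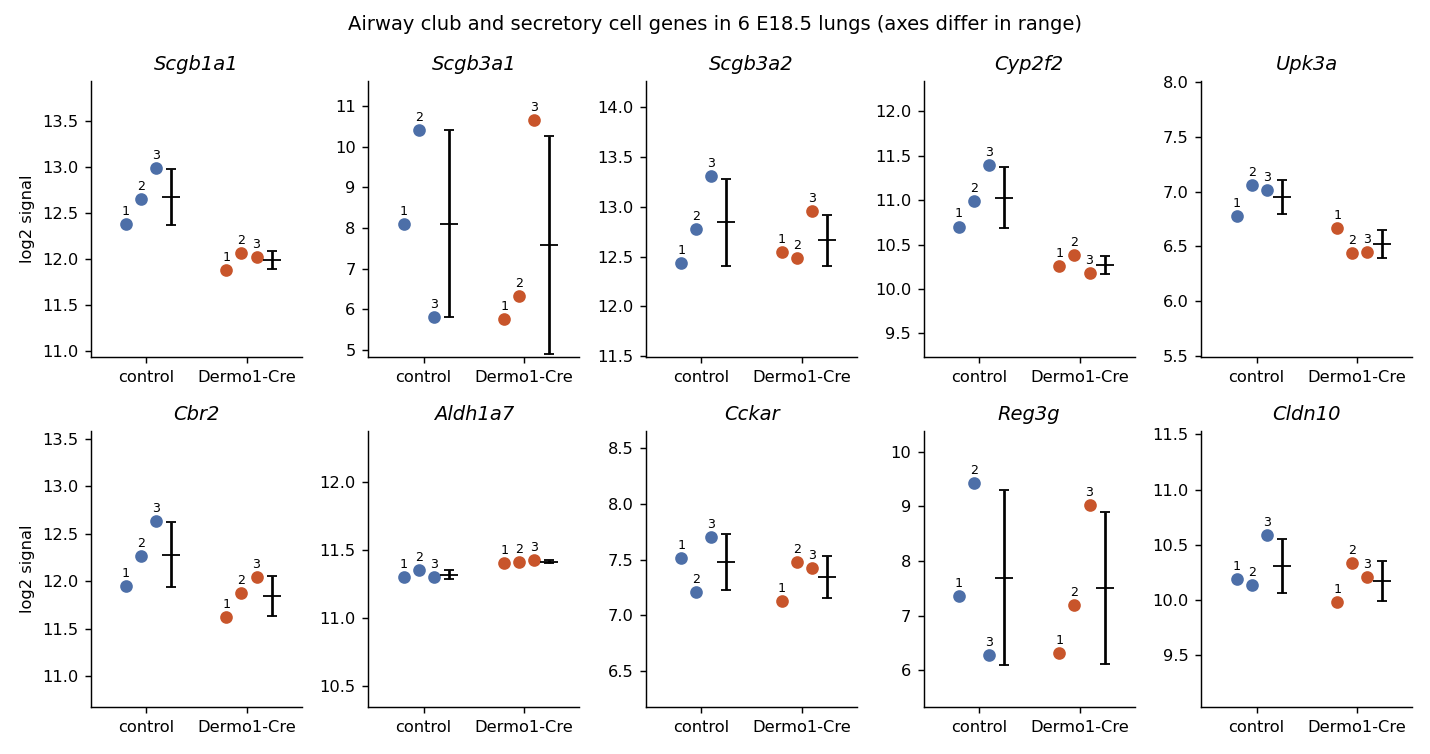
Log2 signal of the 10 genes (y axis, with a range of its own in each panel) in control-labelled (blue) and Cre-labelled (orange) lungs. Points are arrays with their replicate number, and the bar beside them is the mean with its SD (n = 3). The groups are apart for Scgb1a1, Cyp2f2, Upk3a and Aldh1a7, while the Scgb3a1 points span 5.77 to 10.67.

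Cyp2f2, a cytochrome P450 of club cells that bioactivates compounds such as naphthalene, fell. Its log2 signal was 10.70, 10.99 and 11.39 in control-labelled lungs and 10.25, 10.38 and 10.18 in Cre-labelled lungs. All 3 Cre-labelled arrays lay below all 3 control-labelled ones, with a gap of 0.32 between the groups. The means were 11.03 ± 0.35 (SD, n = 3) and 10.27 ± 0.10 (SD, n = 3), a difference of -0.76 ± 0.16 SE (limma adjusted p = 0.039), so the Cre-labelled signal was 59.2% of the control-labelled one. This call was close to the threshold. It was lost in 5 of the 6 fits that left out 1 array, all but that without control-labelled replicate 1, where the difference ranged from -0.92 to -0.57, and it held in 8 of 19 alternative settings (limma adjusted p 0.014 to 0.11). The difference was negative in all 19.

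The promoter window of Cyp2f2 is shown because it is the called gene, and those of Scgb3a1 and Reg3g because these genes varied together across the arrays. Each holds the 250 bases before the RefSeq gene start (GRCm38.p6), written 5′ to 3′ on the strand of the gene: chr7:27119705-27119954 (plus strand) for Cyp2f2, chr11:49663345-49663594 (plus strand) for Scgb3a1 and chr6:78468875-78469124 (minus strand) for Reg3g. Capitals mark matches, on either strand, to letters that nuclear factor I (TTGGCA, or TTGGC and GCCAA with 5 bases between), FOXA factors (TGTTTAC and TGTTTGC), NKX2-1 (CAAGTG and CTCAAG) and C/EBP factors (TTGCNNAA) can bind. The motifs CAAGTG and CTCAAG can overlap each other.
Cyp2f2: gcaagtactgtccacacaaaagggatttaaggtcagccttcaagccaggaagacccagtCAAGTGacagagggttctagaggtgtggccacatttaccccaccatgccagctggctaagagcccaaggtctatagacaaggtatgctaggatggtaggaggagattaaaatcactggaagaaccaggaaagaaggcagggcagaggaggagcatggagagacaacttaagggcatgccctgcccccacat
Scgb3a1: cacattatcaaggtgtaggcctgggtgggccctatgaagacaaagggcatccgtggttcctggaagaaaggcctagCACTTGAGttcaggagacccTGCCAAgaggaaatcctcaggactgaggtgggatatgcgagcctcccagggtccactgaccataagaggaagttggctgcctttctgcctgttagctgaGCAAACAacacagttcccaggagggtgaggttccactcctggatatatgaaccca
Reg3g: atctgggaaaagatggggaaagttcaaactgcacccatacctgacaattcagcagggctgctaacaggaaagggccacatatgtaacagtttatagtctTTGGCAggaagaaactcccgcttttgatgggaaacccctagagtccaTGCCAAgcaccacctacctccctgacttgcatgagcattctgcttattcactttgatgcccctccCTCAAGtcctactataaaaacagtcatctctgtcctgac
The Cyp2f2 window held 1 match, CAAGTG 191 bases before the start. The Scgb3a1 window held 4 matches, all read on the other strand: TTGGCA at 154 bases, the overlapping CTCAAG and CAAGTG at 172 and 174 bases, and TGTTTGC at 55 bases before the start. The Reg3g window held TTGGCA at 151 bases, the same letters on the other strand at 104 bases, and CTCAAG at 39 bases. These short letters are common. Among 32851 windows of the same length, TTGGCA was in 12.3%, CAAGTG in 11.6%, CTCAAG in 13.3%, TTGCNNAA in 9.56%, TGTTTGC in 4.30% and TGTTTAC in 3.17%, and the NFI palindrome was in 12 windows. A window was held for 7 of the 10 genes, and the other 3 were not analysed here. TTGGCA was in 3 of these, Scgb3a1, Reg3g and Aldh1a7, and a match is a description, not a binding site.

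Among the secretoglobins, Scgb1a1, the club cell secretory protein that defines the cell type, was nearest to a call after Cyp2f2. Its signal was 12.38, 12.65 and 12.98 in control-labelled lungs and 11.88, 12.06 and 12.02 in Cre-labelled lungs. The groups did not overlap and were 0.32 apart, with means of 12.67 ± 0.30 and 11.99 ± 0.10 (SD, n = 3 each). The difference of -0.69 ± 0.17 SE (limma adjusted p = 0.056) missed the threshold, and its 95% interval ran from -1.06 to -0.31. It passed in 3 of 19 alternatives, under quantile normalization (adjusted p = 0.0035), with the replicate block and without control-labelled replicate 1, and was negative in all 19 (limma adjusted p up to 0.17).

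Scgb3a2, a secretoglobin that appears early in airway development, was not called. Its signal was 12.44, 12.78 and 13.31 in control-labelled lungs and 12.54, 12.48 and 12.96 in Cre-labelled lungs. The groups overlapped, and the Cre-labelled values all lay within the control-labelled range. The difference was -0.18 ± 0.23 SE (95% interval -0.70 to 0.34, limma adjusted p = 0.73), which does not show that the groups were alike.

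Whether Scgb1a1 and Cyp2f2 differed from Scgb3a2 in their change was tested on the difference between the signals of 2 genes within each array, since a probe set's level cannot be compared with another's but such a difference can be compared between groups. For Scgb1a1 minus Scgb3a2 it was -0.17 ± 0.14 in the control-labelled group and -0.67 ± 0.26 in Cre-labelled lungs (SD, n = 3 each), lower by 0.50 in the latter on the log2 scale. For Cyp2f2 minus Scgb3a2 the values were -1.81 ± 0.09 and -2.39 ± 0.35 (SD, n = 3 each). For both, all 3 Cre-labelled values lay below all control-labelled ones. The exact permutation test gave p = 0.10, two-sided, the smallest value this test can give with 3 against 3 arrays (0.17 adjusted over 5 such contrasts). These contrasts were chosen with earlier results of these data known, and the p-values do not allow for that choice.

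The third secretoglobin, Scgb3a1, whose product is secreted mainly in larger airways, varied widely. It read 8.10, 10.42 and 5.81 in control-labelled lungs and 5.77, 6.33 and 10.67 in Cre-labelled lungs. Control-labelled replicate 2 and Cre-labelled replicate 3 were high, control-labelled replicate 3 and Cre-labelled replicates 1 and 2 were low, and the whole range was 30.0-fold. Means were 8.11 ± 2.31 and 7.59 ± 2.69 (SD, n = 3 each), and the difference of -0.52 ± 1.34 SE had a 95% interval from -3.54 to 2.50 (limma adjusted p = 0.88), so a rise or a fall of several-fold was not detectable at this spread.

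Reg3g, a secreted antibacterial lectin of mucosal epithelia, was high on the same arrays. Its signal was 7.36, 9.44 and 6.28 in the control-labelled group and 6.31, 7.19 and 9.02 in Cre-labelled lungs. The highest 2 arrays were again control-labelled replicate 2 and Cre-labelled replicate 3, the groups overlapped, and the range over 6 arrays was 8.90-fold. Its difference was -0.18 ± 0.81 SE (limma adjusted p = 0.93). The near relatives Reg3b (2.87 to 4.32) and Reg3a (-0.54 to 1.62) had means under the filter and were not tested.

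Values that could accompany the high arrays were read for marker lists of neighbouring tissues. Liver genes were highest on the same 2 arrays, but lowest on control-labelled replicate 1, where Scgb3a1 read 8.10 and Reg3g 7.36. Their list means over 4 tested genes were 3.57, 7.17 and 5.79 in control-labelled lungs and 4.83, 3.84 and 6.21 in Cre-labelled lungs, with none called. Alb, the serum albumin gene, named after its values were seen, read 4.36, 8.69 and 6.64 in the control-labelled group and 5.67, 4.90 and 7.45 in Cre-labelled lungs. The Pearson correlation of Scgb3a1 over the 6 arrays was 0.63 with Alb and 0.51 with Afp, also of the liver list. For Reg3g it was 0.68 and 0.55. Under the filter lay 4 of 8 matched liver genes. Cartilage genes of the larger airways did not peak on these arrays, with list means of 5.10 to 5.81 in the control-labelled group and 5.28 to 5.61 in Cre-labelled lungs over 9 tested genes and the highest value on control-labelled replicate 1. Of the basal cell and oesophagus list 5 genes were tested, with means of 4.89 to 5.20 and 4.79 to 5.22. Of these the keratin gene Krt15 was called lower (limma adjusted p = 0.020). The other 4 had higher means and were not called, the list's median difference was 0.08, and the defining basal gene Trp63 was at 3.18 to 3.84, under the filter. Of 10 matched neuroendocrine genes 7 were under the filter, Chga and Resp18 among them. The part of these tissues in the variation of Scgb3a1 and Reg3g was not tested.

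**Figure D2:**
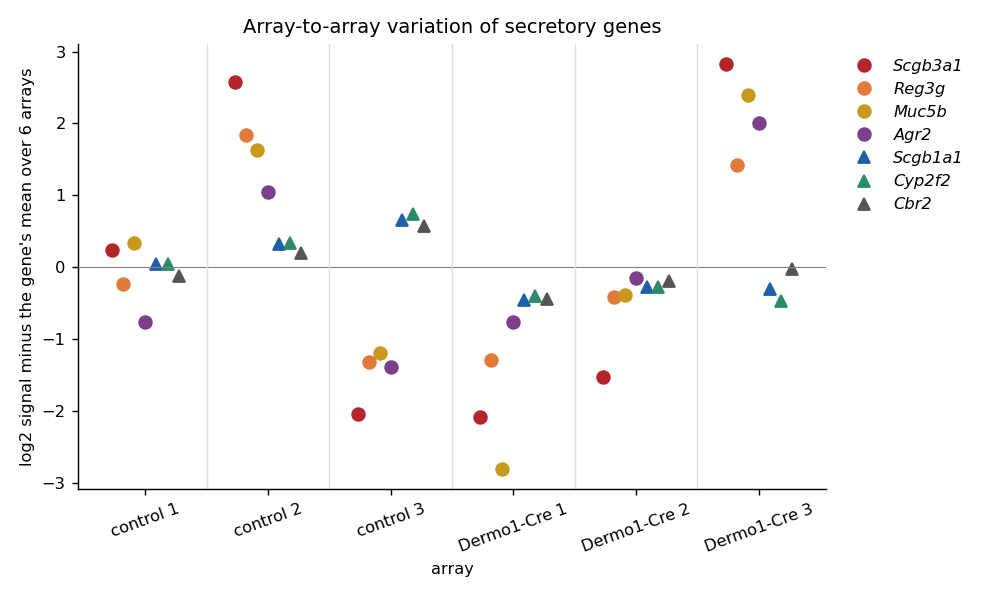
Log2 signal minus the gene's mean over 6 arrays (y axis) on each array (x axis) for Scgb3a1, Reg3g, Muc5b and Agr2 (circles) and for Scgb1a1, Cyp2f2 and Cbr2 (triangles). The circles are high on control-labelled replicate 2 and Cre-labelled replicate 3, whereas the triangles of Scgb1a1 and Cyp2f2 are lower on all 3 Cre-labelled arrays than on any control-labelled one; the Cbr2 groups overlap.

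Of the enzymes, Cbr2, a carbonyl reductase abundant in lung, read 11.95, 12.26 and 12.64 in the control-labelled group and 11.62, 11.87 and 12.04 in Cre-labelled lungs. Cre-labelled replicate 3 lay above control-labelled replicate 1, so the groups overlapped. The difference of -0.44 ± 0.19 SE was not called (limma adjusted p = 0.24), although it was under quantile normalization (-0.40 ± 0.08 SE, adjusted p = 0.022).

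Aldh1a7, a cytosolic aldehyde dehydrogenase, was the steadiest of the 10. It read 11.30, 11.35 and 11.30 in the control-labelled group and 11.40, 11.41 and 11.42 in Cre-labelled lungs, a range of 1.09-fold over all 6 arrays. The Cre-labelled arrays were all slightly higher, and the difference of 0.09 ± 0.10 SE was not called (limma adjusted p = 0.67), with a 95% interval from -0.13 to 0.32. The probe set of Aldh1a1, a close relative, read 9.74, 10.04 and 10.04 against 9.28, 9.47 and 9.57 and was not called (-0.50 ± 0.12 SE, limma adjusted p = 0.056). Whether the probes of either gene also bind RNA of the other was not tested.

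At the cell surface, Upk3a, a uroplakin that marks a subset of club cells beside neuroendocrine bodies, read 6.78, 7.06 and 7.02 in the control-labelled group and 6.67, 6.44 and 6.45 in Cre-labelled lungs. The groups were apart by 0.11, and the difference of -0.43 ± 0.15 SE was not called (limma adjusted p = 0.14). The tight junction gene Cldn10 read 10.19, 10.13 and 10.58 in the control-labelled group and 9.98, 10.34 and 10.20 in Cre-labelled lungs, and the cholecystokinin receptor gene Cckar read 7.51, 7.21 and 7.71 against 7.13, 7.48 and 7.42. The groups of both genes overlapped, with differences of -0.13 ± 0.14 SE and -0.13 ± 0.16 SE (limma adjusted p 0.68 and 0.70). Their highest control-labelled array was replicate 3, as for Scgb1a1, Scgb3a2, Cyp2f2 and Cbr2.

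**Figure D3:**
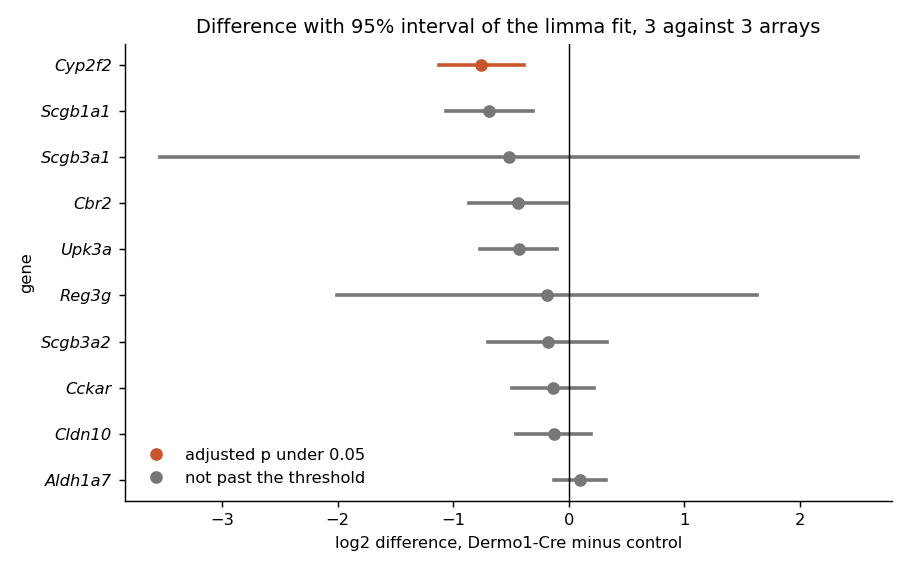
Log2 difference, Cre-labelled minus control-labelled (x axis), for each gene (y axis), with its 95% interval from limma (3 arrays a group). The interval of Cyp2f2 runs from -1.13 to -0.39, and that of Scgb3a1 from -3.54 to 2.50.

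The spread of the 10 genes was set beside epithelial genes in general. Of 19 tested genes expressed throughout epithelia, such as Cdh1, Epcam and keratins, 17 had a lower mean and 2 were called lower, Spint1, a protease inhibitor (-0.58 ± 0.11 SE, limma adjusted p = 0.027), and Krt19 (-0.63 ± 0.14 SE, adjusted p = 0.039). Among all tested genes 3.04% were called lower and 51.5% had a lower mean. The median difference of the epithelial genes was -0.30, beside -0.31 for the 10 airway genes and -0.01 for all tested genes. Relative to the mean of these epithelial genes within an array, Cyp2f2 changed by -0.45 (1.81 ± 0.25 against 1.36 ± 0.03, SD, n = 3 each), with all Cre-labelled values below the control-labelled ones (exact permutation p = 0.10, 0.17 adjusted over 5 contrasts). For Scgb1a1 this was -0.37, with overlapping groups (exact p = 0.20, 0.25 adjusted), and for Scgb3a2 0.13 (exact p = 0.60, also adjusted). Centring every array on these genes raised the median of all probe sets by 0.31, and Scgb3a2, Reg3g, Cckar and Cldn10 then had positive differences while no member was called.

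The wider secretory programme was described from 4 lists of 96 genes, of which 89 matched a probe set and 73 were tested. Of these, 14 were called lower and 1 higher, and 61 had a lower mean, beside 51.5% of all tested genes. Over all 12826 tested genes 3.04% were called lower and 1.92% higher. The median difference of the 73 was -0.36. The lists were chosen with earlier results of these data known. Genes of alveolar cells moved on the same arrays, with 8 of 12 alveolar type I and 7 of 11 alveolar type II genes called lower, and some of the listed enzymes and secreted proteins are also made by those cells, by fibroblasts or by leukocytes.

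Of 14 tested genes of other secreted products, 3 were called lower and none higher. Lcn2, the iron-scavenging lipocalin of mucosal defence, read 7.87, 7.70 and 7.72 in the control-labelled group and 6.10, 5.88 and 6.03 in Cre-labelled lungs with no overlap (-1.76 ± 0.13 SE, limma adjusted p = 0.0021). Pglyrp1, an antibacterial peptidoglycan recognition protein also stored in neutrophils, fell (-1.23 ± 0.27 SE, adjusted p = 0.043), as did Lypd2 (-0.56 ± 0.11 SE, adjusted p = 0.030). Lypd2 passed in none and Pglyrp1 in 1 of the 6 fits without 1 array, while Lcn2 passed in all 6. The mucin gene Muc5b, with 4.78, 6.06 and 3.25 against 1.63, 4.04 and 6.83, was not called (limma adjusted p = 0.85). Nor was the disulfide isomerase gene Agr2, with 4.54, 6.35 and 3.91 against 4.54, 5.15 and 7.30 (adjusted p = 0.65). Both were high on the arrays on which Scgb3a1 was high and were named after their values were seen. Another 9 products, among them Bpifa1, Muc5ac, Tff2, Pigr and Clca1, lay under the filter.

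Of 20 tested detoxification enzyme genes, 7 were called lower and none higher. The flavin monooxygenases Fmo2 (-2.67 ± 0.27 SE, limma adjusted p = 0.0038) and Fmo1 (-1.23 ± 0.12 SE), the paraoxonase Pon1 (-1.77 ± 0.24 SE), the aldehyde oxidase Aox3 (-1.42 ± 0.19 SE) and the cytochrome P450 Cyp2s1 (-1.01 ± 0.15 SE) passed in all 6 fits without 1 array. Cyp4b1, a cytochrome P450 of lung epithelium, read 7.97, 8.01 and 8.24 in the control-labelled group and 7.18, 7.53 and 6.74 in Cre-labelled lungs (-0.93 ± 0.19 SE, adjusted p = 0.032) and passed in 1 of these fits. Gstm1, a glutathione transferase with close relatives on the array, fell as well (-0.80 ± 0.13 SE) and passed in 4. The 95% interval of Mgst1, the microsomal glutathione transferase of many lung cells, named after its values were seen, ran from -0.53 to 0.20 (adjusted p = 0.63).

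None of 16 tested surface, receptor and junction genes was called, although 15 had a lower mean (median -0.32). The smallest unadjusted p were those of the protease gene Tmprss2 (-0.52 ± 0.13 SE, limma adjusted p = 0.058) and the claudin gene Cldn3 (-0.85 ± 0.24 SE, adjusted p = 0.088). At an unadjusted p under 0.05, 5 of the 16 were lower and 1, the membrane glycoprotein gene Prom1, named after its value was seen, was higher, beside 12.8% of all tested genes lower and 10.7% higher at that p.

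Of 23 tested regulators of airway secretory fate, 4 were called lower, 1 higher, and 14 had a lower mean. The shares over all tested genes were 3.04%, 1.92% and 51.5%. The Notch target gene Hey1 read 8.34, 8.15 and 8.16 in the control-labelled group and 7.17, 6.83 and 7.29 in Cre-labelled lungs (-1.12 ± 0.14 SE, limma adjusted p = 0.0068) and passed in all 6 fits without 1 array. The receptor gene Notch2 was higher, with 9.37, 9.24 and 9.28 against 10.05, 9.74 and 10.11 (0.67 ± 0.12 SE, adjusted p = 0.019), and passed in 1 of them. The C/EBP factor genes Cebpd (-0.85 ± 0.16 SE, adjusted p = 0.025) and Cebpa (-0.64 ± 0.14 SE, adjusted p = 0.042) and the Krüppel-like factor gene Klf5 (-0.81 ± 0.17 SE, adjusted p = 0.039) fell, and in the fits without 1 array they passed in 2, 1 and 1. Hey1 and Notch2 are also expressed by endothelial and mesenchymal cells. The Notch target Hes1 (-0.11 ± 0.15 SE, adjusted p = 0.76), Sox2, a marker of the conducting airways (-0.25 ± 0.17 SE, adjusted p = 0.47), and Foxa2 (-0.09 ± 0.21 SE, adjusted p = 0.86), named after their values were seen, were not called.

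**Figure D4:**
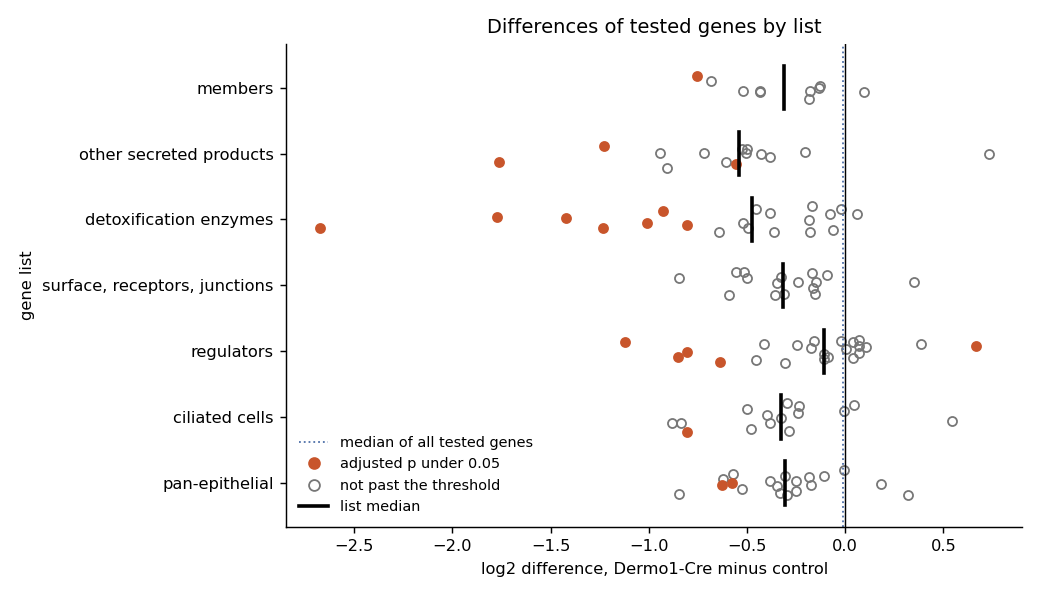
Log2 difference, Cre-labelled minus control-labelled (x axis), of each tested gene in 7 lists (y axis). Filled points were called, open ones were not, black bars are list medians and the dotted line is the median of all tested genes; the medians of the 10 members (-0.31) and the pan-epithelial list (-0.30) lie close together.

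Ciliated cells, the other main cell type of the conducting airway, showed 1 called gene of 15 tested, the microtubule gene Tppp3 (-0.81 ± 0.15 SE, limma adjusted p = 0.021), and 13 lower means. The median difference was -0.33. Over all tested genes 3.04% were called lower and 51.5% had a lower mean. Their master regulator gene Foxj1 read 6.41, 6.88 and 6.49 in the control-labelled group and 6.16, 6.33 and 4.79 in Cre-labelled lungs and was not called (-0.83 ± 0.36 SE, limma adjusted p = 0.25), and it was named after its values were seen. Cardiac muscle genes, which come from heart or vein tissue, had list means of 7.12 to 8.73 in the control-labelled group and 5.69 to 7.40 in Cre-labelled lungs. All 15 tested had a lower mean in Cre-labelled lungs, beside 51.5% of all tested genes. Their median difference was -1.17, and 1 was called lower. The part of cardiac tissue in the results was not tested beyond the alternative that holds the list mean as a covariate. With it Cyp2f2 changed by -1.06 ± 0.20 SE and lost its call (limma adjusted p = 0.058). The 3' minus 5' difference of the Actb control probe sets, a measure of RNA quality, was 0.35 to 0.52 in the control-labelled group and 0.41 to 0.83 in Cre-labelled lungs, highest on Cre-labelled replicate 3. For Gapdh it was -0.20 to -0.05 on the control-labelled arrays and -0.34, -0.32 and 0.07 on the Cre-labelled ones, so Cre-labelled replicates 1 and 2 lay below and replicate 3 above all control-labelled arrays. Their part in the results was not tested.

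The genes whose pattern over the 6 arrays was most like that of Scgb1a1, by Pearson correlation among 12825 other tested genes, were Cystm1 (r = 0.99), Ccz1, Aifm2, Slc31a1 and Qpct. The correlation describes 6 arrays in 2 groups that share their scaling, and 597 genes had an r above 0.9. Among the 10 members the closest was Cyp2f2 (r = 0.99), followed by Cbr2 (r = 0.93), whereas Scgb3a1 had an r of -0.00 and Reg3g of -0.01 with Scgb1a1.

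**Figure D5:**
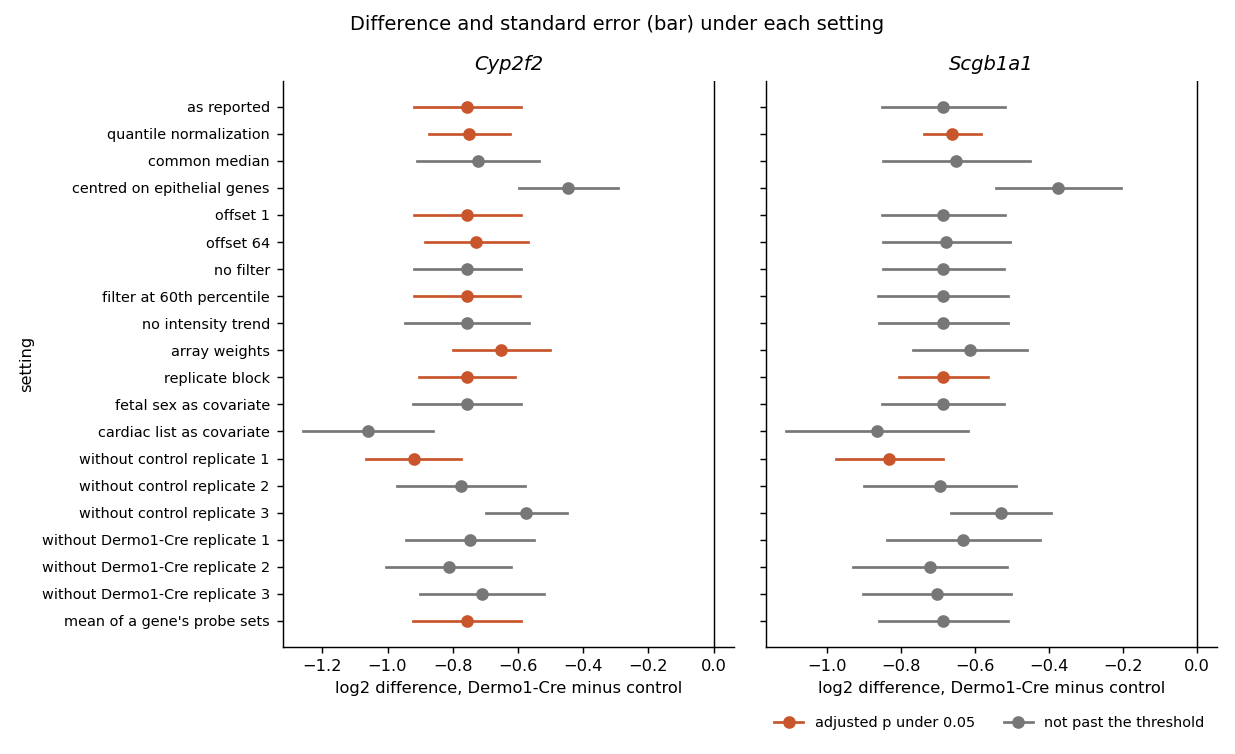
Log2 difference (x axis) of Cyp2f2 and Scgb1a1 with its SE (bar) under each setting (y axis); orange points passed the threshold. Every point lies below 0; Cyp2f2 passed in 8 and Scgb1a1 in 3 of 19 alternatives.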

How the data were processed

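Lung RNA of 6 fetuses was isolated with TRIzol and column purification and hybridised as biotinylated cRNA, per the labels' protocols. Signals came from MAS5 and affy, per the submitters' processing notes, which give no versions. For the scaling target, the labels and notes used here give nothing. The deposited values are log2 signals, and 4.93% to 6.49% of an array's values lay below 0. They were used as deposited, with no offset.

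Of 45101 probe sets, 64 controls were dropped. GEO's platform annotation gave 1 gene symbol for 34945, several for 932 and none for 9160; 34741 were matched to RefSeq (GRCm38.p6) for names. Probe sets whose mean reached the 40th percentile of all that were not controls were tested (27022) with limma 3.58.1 in R 4.3.3 (intensity trend, two-sided, no covariates, 4 residual degrees of freedom, Benjamini-Hochberg over all tested). Lists used the probe set with the highest mean per gene; genes in 2 lists count in each. Within-array contrasts used exact permutation over arrays. The fit was checked on simulated data. Members, lists, tests and the rule for named genes (all members, called list genes and the 2 smallest p per list, and 5 genes most like Scgb1a1) were chosen with earlier results of these data known. Alternatives were 3 scalings, 2 offsets, 2 filters, the variance model, array weights, 3 covariate or block fits, each array left out, probe set means and an adjusted p of 0.10. Fetal sex is not in the labels and was inferred from the signal of Xist, with a high value taken as female. Xist read 11.83 on control-labelled replicate 1, 12.09 on Cre-labelled replicate 2 and 4.34 to 5.00 on the other arrays. The labels name no pairing of animals, so the main fit used none, and the replicate block is given as an alternative. Deviations of same-numbered arrays from their group means correlated at -0.01, 0.20 and 0.14. Those of differently numbered arrays correlated at -0.27 to 0.14. With so few arrays these values cannot decide whether the replicate numbers pair animals. The number of arrays limits precision. Figures used matplotlib 3.10.9 in Python 3.11.15.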

Additional observations from a re-analysis of the deposited data

How the results depend on the processing

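Cyp2f2, Scgb1a1, Upk3a and Cbr2 were lower and Aldh1a7 higher in all 19 alternatives, and the other 5 members changed sign in at least 1. Reversed values were, for Scgb3a1, 2.42 with the cardiac list as a covariate, 0.64 without control-labelled replicate 2, 0.39 and 0.11 without Cre-labelled replicates 1 and 2; for Reg3g, 0.13 centred on epithelial genes, 1.35 with the cardiac covariate, 0.69 and 0.41 without control-labelled replicate 2 and Cre-labelled replicate 1; for Scgb3a2, 0.13 centred on epithelial genes and 0.05 without control-labelled replicate 3; for Cldn10, 0.18 and 0.01 in the same fits; and for Cckar, 0.18 centred on epithelial genes. The within-array contrast of Scgb3a2 with epithelial genes turned to -0.04 without control-labelled replicate 1 and -0.08 without Cre-labelled replicate 3 (range without 1 array -0.079 to 0.31). Without 1 array, differences ran from -2.06 to 0.64 for Scgb3a1, -0.94 to 0.69 for Reg3g, -0.38 to 0.053 for Scgb3a2 and -0.21 to 0.0096 for Cldn10. The other 4 contrasts stayed negative in all alternatives. The causes were not tested.

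The count of members called lower (1) was 3 under quantile normalization, 2 at an adjusted p of 0.10, and 0 with a common median, epithelial centring, no filter, no intensity trend, fetal sex or the cardiac list as covariates, and 0 to 2 when 1 array was left out (0 in all but that without control-labelled replicate 1). With the replicate block it was 2 (Scgb1a1 adjusted p = 0.029 in limma), with 792 probe sets lower and 517 higher over all genes. Of all probe sets, 583 were called lower and 380 higher. The lower count was 384 with a common median, 284 with epithelial centring, 124 without intensity trend and 123 with the cardiac covariate, and 208 to 351 without 1 array. The higher count was 3490, 47 and 66 under the last 3 of these settings, 249 without filter, 196 with fetal sex and 93 to 163 without 1 array. Related airway genes called lower (14) numbered 6 without intensity trend, 8 with the cardiac covariate and 7 to 11 without 1 array, and those called higher (1) 2 with epithelial centring, 0 in the other 2 of these and 0 to 1 without 1 array. None of the 15 called related airway genes changed sign.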

Other observations

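Among 236 other tested genes whose signal spanned at least 2 log2 units over the 6 arrays, the 3 whose pattern was most like that of Scgb3a1 were Reg3g (r = 0.97), the gel-forming mucin gene Muc5b (r = 0.93) and Agr2 (r = 0.89), which encodes a protein needed for mucin folding. These are secretory genes of larger airways and mucous cells, and the comparison was chosen after the values of Scgb3a1 were seen. The next were Faim2 (r = 0.86) and the microfibril gene Mfap5 (r = 0.85), and then the genes of the T-box factors Tbx20 (r = 0.79) and Tbx18 (r = 0.78), which are expressed in heart and its lining. The correlations describe 6 arrays that share their scaling. All 7 genes overlapped between the groups, and none was called in limma (adjusted p 0.28 to 0.93).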
